A study of Mus musculus with 6 samples.

Results

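The syndecans and glypicans are the cell-surface proteoglycans that carry heparan sulfate, and their transcripts were compared between stem-cell-rich and committed blood progenitors of the mouse. The 9 genes are Sdc1, Sdc2, Sdc3 and Sdc4 among the syndecans and Gpc1, Gpc2, Gpc3, Gpc4 and Gpc6 among the glypicans, out of 18193 genes measured. They were chosen from the family names while earlier results of these arrays were known, so the counts below describe the 9 genes and are no independent support for any difference. Within a gene, the probe set that represents it was selected by its mean log2 intensity over the 6 arrays, which favours neither population.

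RNA came from 2 populations sorted by flow cytometry from wild-type C57BL/6 mice, with 3 arrays of each and no treatment or mutation in either. LSK cells were low in lineage markers and positive for Sca1 and Kit, a gate that holds stem cells together with multipotent progenitors. LK cells were low in lineage markers, positive for Kit and negative for Sca1, a gate that holds a mixture of committed myeloid, erythroid and megakaryocyte progenitors. The labels number the samples 1 to 3 in each population and do not state whether different animals were used, so each p-value reflects how far these samples vary, which may be technical. In such mixed RNA, fewer cells of a type and less RNA per cell cannot be told apart.

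Heparan sulfate is a long, variably sulfated sugar chain that is built on a protein core and binds growth factors, chemokines and matrix proteins, holding them near the cell or presenting them to their receptors. Syndecans span the membrane and end in a short cytoplasmic tail that contacts the cytoskeleton and signalling proteins, whereas glypicans are fixed to the outer leaflet of the membrane by a glycosylphosphatidylinositol anchor and act mainly on Wnt, Hedgehog, BMP and FGF ligands. Syndecan-1, also called CD138, is best known in blood as the surface marker of plasma cells. In the marrow, heparan sulfate of stromal and blood-forming cells retains cytokines and the chemokine Cxcl12.

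The labels were checked against markers of the populations. Of 7 measured markers of stem cells and multipotent progenitors, 6 were higher in LSK at a limma adjusted p under 0.05. All 7 had the higher mean in LSK. Of 8 markers of committed progenitors, 7 were lower in LSK at that threshold, and 0 had the higher mean in LSK. The median log2 intensity of an array lay between 2.98 and 3.09 and its upper quartile between 4.37 and 4.69, so that values near 3 belong to the dim end of the scale, where differences are compressed. The arrays numbered 2 had the highest medians (3.06 in LSK and 3.09 in LK) and the lowest upper quartiles (4.46 and 4.37). For the Actb and Gapdh controls, the log2 signal at the 3' end minus that at the 5' end, which reflects RNA integrity and amplification, averaged 2.64 ± 0.56 over the LSK arrays and 3.53 ± 0.36 over the LK arrays (SD, n = 3 each). An exact two-sided permutation test gave p = 0.2 for this, where a design of 3 and 3 arrays cannot go below 0.1.

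Of the 9 genes, 3 were higher in LSK (Sdc1, Sdc4 and Gpc2), 2 were lower in LSK (Gpc1 and Gpc4) and 4 did not pass the threshold, an adjusted p under 0.05 in limma with adjustment over all genes. Over all 18193 genes the same fit called 6.73%, made up of 3.84% higher and 2.89% lower in LSK. The median log2 difference of the 9 genes, LSK minus LK, was -0.03, against -0.02 over all genes, and without LK replicate 3 it was 0.05. The median absolute log2 difference was 1.32 in the 9 genes and 0.22 over all genes. The arrays of LSK and LK did not overlap in 5 of the 9 genes, those past the threshold, and in 28% of all genes. Without overlap each same-numbered pair has to show the direction of the means, so the pairs add nothing for these 5 genes. The same 5 genes passed in a fit with the replicate number as a block, as did 14.4% of all genes. The pairing in that fit was inferred from these same arrays, so it is no independent check. A plot of the values by array shows the wide gaps of Sdc1 and Sdc4 and the flat genes near the dim end.

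**Figure D1:**
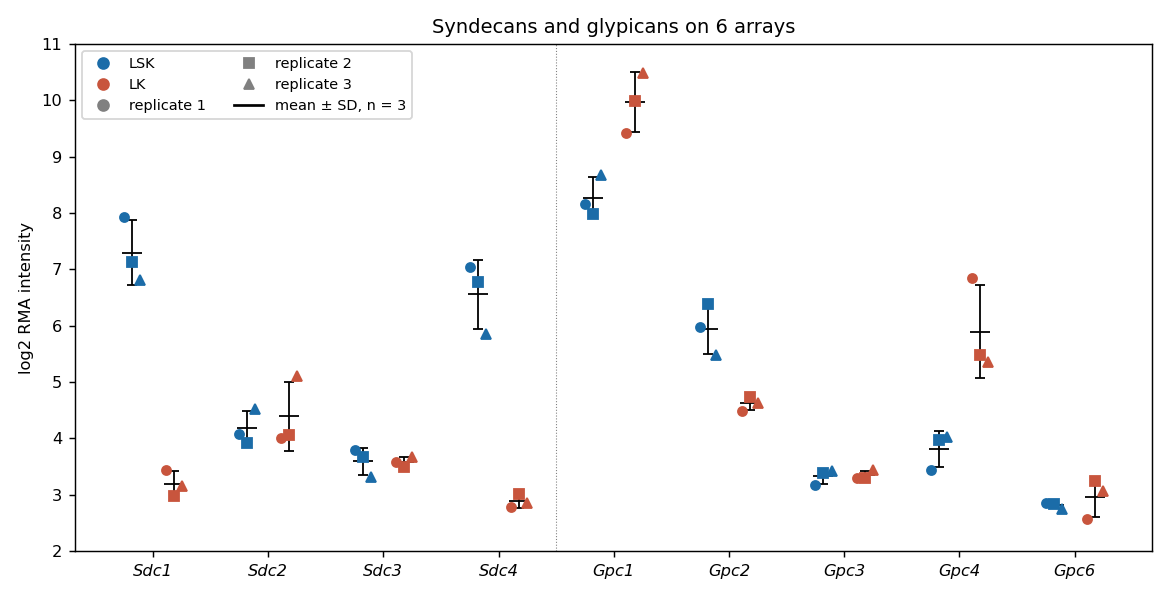
Log2 RMA intensity (y axis) of the 9 genes (x axis) on each of the 3 LSK arrays (blue) and 3 LK arrays (red), with marker shape for the replicate number and bars for mean ± SD, n = 3. Sdc1, Sdc4 and Gpc2 lie higher in all LSK arrays, Gpc1 and Gpc4 higher in all LK arrays, and the other 4 genes overlap.

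Sdc1 encodes syndecan-1, a receptor-like proteoglycan of epithelia and plasma cells. Its log2 intensity was 7.94, 7.14 and 6.82 on LSK arrays 1 to 3 and 3.43, 2.98 and 3.15 on LK arrays 1 to 3. Every LSK array lay well above the dim end of the scale, and every LK array lay near it. The means were 7.30 ± 0.58 (SD, n = 3) and 3.19 ± 0.23 (SD, n = 3), a log2 difference of 4.11 (SE 0.30) or 17.3-fold (limma adjusted p = 0.00168). Sdc1 passed in each of the 6 fits that left out 1 array, with log2 differences from 3.79 to 4.35.

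Sdc1 had 4 probe sets, and they did not give the same picture. The _x_at probe set 1437279_x_at, whose suffix marks possible cross-hybridisation, had a log2 difference of 2.91 (adjusted p = 0.0104 over all probe sets, limma). It read 6.30, 5.05 and 5.84 on LSK arrays 1 to 3, so replicate 2 was the lowest there. Another one, 1415944_at, read 5.21, 4.31 and 3.09 in LSK against 2.64, 3.07 and 2.94 in LK, so LSK replicate 3 lay just above the highest LK array there and the difference of 1.32 did not pass (adjusted p = 0.231). The remaining one, 1448158_at, read between 2.43 and 2.94 on all arrays, with a log2 difference of -0.05. Averaged over its 4 probe sets, the log2 difference of Sdc1 was 2.07 (adjusted p = 0.0082).

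Sdc4 encodes syndecan-4, a component of focal adhesions whose tail binds and activates protein kinase C alpha. Its log2 intensity was 7.03, 6.77 and 5.86 in LSK and 2.78, 3.01 and 2.85 in LK. The populations were separated by a wide gap, with all LK values at the dim end. LSK replicate 3 was the lowest of its population, as for the representing probe set of Sdc1. The means were 6.55 ± 0.62 (SD, n = 3) and 2.88 ± 0.12 (SD, n = 3), a log2 difference of 3.67 (SE 0.30) or 12.8-fold (limma adjusted p = 0.00264). The range was 3.44 to 4.02 when 1 array was left out, and each of these 6 fits called Sdc4. Its other probe set, 1448793_a_at, stayed between 2.61 and 2.89 on all arrays and had a log2 difference of -0.07, so the difference of Sdc4 rests on 1 of its 2 probe sets. In LK the 2 averaged 2.88 and 2.80, so the first was selected mainly through its LSK values. The mean of both gave 1.80 (adjusted p = 0.00454).

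The other syndecans lay at low levels in both populations. Sdc2 encodes syndecan-2, a proteoglycan best known from fibroblasts and other mesenchymal cells. Its log2 intensity was 4.08, 3.92 and 4.52 in LSK and 4.01, 4.05 and 5.10 in LK. The ranges overlapped, and the log2 difference was -0.21 with a 95% interval from -1.0 to 0.57 (limma adjusted p = 0.765). Sdc3 encodes syndecan-3, known from nervous tissue, and read 3.78, 3.67 and 3.32 in LSK against 3.58, 3.50 and 3.66 in LK. Its log2 difference was 0.01 with an interval from -0.37 to 0.39 (adjusted p = 0.984). None of the 4 Sdc2 and 3 Sdc3 probe sets passed the threshold, and their log2 differences ran from -0.21 to 0.31. A p above the threshold does not show equal levels: the intervals leave room for a log2 difference of -1.0 for Sdc2.

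Among the glypicans, Gpc1 was the one with high intensities in both populations, and it was lower in LSK. Glypican-1 is a coreceptor of FGF and VEGF ligands. Its log2 intensity was 8.16, 7.98 and 8.67 in LSK and 9.43, 9.99 and 10.49 in LK. The highest LSK array, replicate 3, lay below the lowest LK array, replicate 1. The means were 8.27 ± 0.36 (SD, n = 3) and 9.97 ± 0.53 (SD, n = 3), a log2 difference of -1.70 (SE 0.31), 3.25-fold, with a limma adjusted p of 0.0279. Gpc1 has 1 probe set, and no value of it lies near the dim end. The call was lost without LSK replicate 1 (adjusted p = 0.102), LSK replicate 2 (0.0776), LK replicate 2 (0.0707) or LK replicate 3 (0.0804), while the log2 difference stayed between -1.97 and -1.44.

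Gpc4, which encodes a glypican that binds Wnt and FGF ligands, was also lower in LSK. It read 3.44, 3.97 and 4.03 in LSK and 6.85, 5.47 and 5.36 in LK. The LSK arrays lay near the dim end and the LK arrays above it, with LK replicate 1 far above the others. The means were 3.81 ± 0.32 (SD, n = 3) and 5.89 ± 0.83 (SD, n = 3), a log2 difference of -2.08 (SE 0.41) or 4.22-fold (limma adjusted p = 0.0352). Of the 5 genes Gpc4 was called least often: with 1 array left out it passed only without LK replicate 1 (log2 difference -1.60, adjusted p = 0.0235), and the adjusted p was 0.117, 0.0824 and 0.0595 on dropping LSK replicate 1, 2 or 3 and 0.0569 and 0.0704 on dropping LK replicate 2 or 3. Its second probe set, 1436514_at, read 3.31, 3.52 and 2.80 in LSK and 6.78, 3.55 and 4.76 in LK, so that LK replicate 2 lay at the level of LSK there (log2 difference -1.82, adjusted p = 0.276). The mean of both probe sets did not pass (adjusted p = 0.0944).

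Gpc2 encodes a glypican best known from the developing nervous system and was higher in LSK. Its log2 intensity was 5.98, 6.38 and 5.47 in LSK and 4.49, 4.73 and 4.63 in LK. The lowest LSK array, replicate 3, lay above the highest LK array. The means were 5.94 ± 0.45 (SD, n = 3) and 4.62 ± 0.12 (SD, n = 3), a log2 difference of 1.32 (SE 0.24) or 2.50-fold (limma adjusted p = 0.0268). The call was lost without LSK replicate 1 (adjusted p = 0.0969), LK replicate 1 (0.075), LK replicate 2 (0.0594) or LK replicate 3 (0.0994), with log2 differences from 1.11 to 1.56 over the fits that left out 1 array. A further probe set annotated to Gpc2 and Gal3st4 together was not counted for Gpc2 and lay between 2.33 and 2.92 on all arrays.

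Gpc3 and Gpc6 were dim throughout. Gpc3, whose human counterpart is mutated in an overgrowth syndrome and which restrains Hedgehog signalling, read between 3.17 and 3.44 on the 6 arrays. Its log2 difference was -0.03 with an interval from -0.34 to 0.29 (limma adjusted p = 0.939). Gpc6, a glypican of the growing skeleton, read between 2.75 and 2.85 in LSK and between 2.56 and 3.23 in LK, a log2 difference of -0.15 with an interval from -0.60 to 0.31 (adjusted p = 0.725). The 4 other Gpc6 probe sets had log2 differences between -0.11 and 0.06. Gpc5, which is not among the 9 genes, was as dim (2.59 ± 0.05 and 2.79 ± 0.23, SD, n = 3, adjusted p = 0.515).

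Counted by probe set, the 9 genes had 23, of which 5 passed the threshold over all probe sets, where 3.21% of probe sets did. These were 2 of Sdc1 and 1 each of Sdc4, Gpc2 and Gpc1, while the brighter one of Gpc4 just missed it (adjusted p = 0.0511, and 0.0372 in the blocked fit). Of the 23 probe sets, 13 had a mean log2 intensity under 4 in both populations, and none of these passed. Among the other 10, the ones that did not pass were 1 of Sdc1, 2 of Sdc2 and 2 of Gpc4. The probe sets of one gene share its transcripts and are not replicates.

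**Figure D2:**
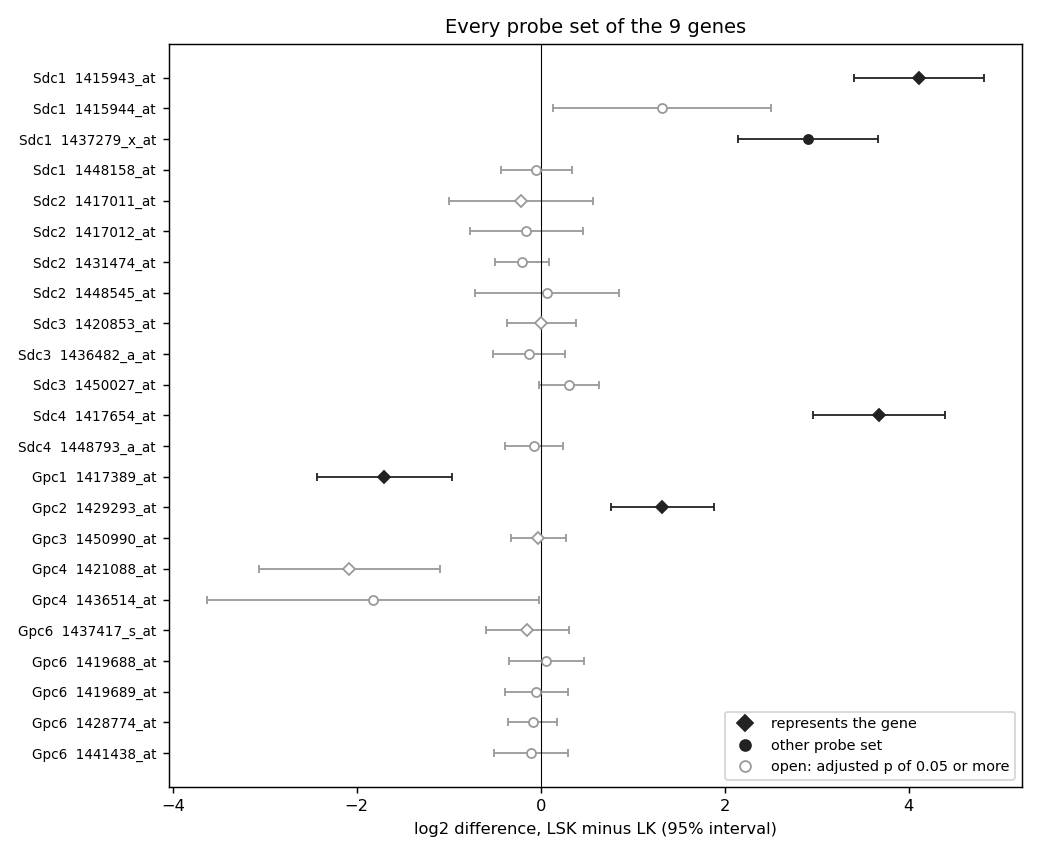
Log2 difference, LSK minus LK (x axis), of each of the 23 probe sets (y axis), with the 95% interval of the limma fit over all probe sets. Diamonds represent the gene and open markers did not pass the threshold. The Sdc1 and Sdc4 probe sets are split between large differences and values near 0, and the intervals of both Gpc4 probe sets lie below 0.

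The sequences before the transcription starts are shown for genes that differed, so that those higher in LSK can be set beside one that was lower. RefSeq promoter entries (GRCm38.p6) matched 6 of the 9 genes. The 250 bases before the start are given for Sdc1 (chr12:8771146-8771395, plus strand), Sdc4 (chr2:164443189-164443438, minus strand), Gpc2 (chr5:138279938-138280187, minus strand) and Gpc4 (chrX:52164924-52165173, minus strand), all 5' to 3'. Capitals mark exact matches to any of 5 short motifs, each searched on both strands. Variant letters that the same factors may bind were not searched and stay unmarked, so windows cannot be contrasted by these marks alone. The letters GGGCGG are those of the GC box, to which Sp1 and its relatives bind. The letters TATAAA are those of the classical core promoter element. The letters AGATAA are those bound by the erythroid factor Gata1 and its relatives. The letters TGTGGT are those bound by RUNX factors. The letters CCGGAA are those bound by ETS factors.
Sdc1: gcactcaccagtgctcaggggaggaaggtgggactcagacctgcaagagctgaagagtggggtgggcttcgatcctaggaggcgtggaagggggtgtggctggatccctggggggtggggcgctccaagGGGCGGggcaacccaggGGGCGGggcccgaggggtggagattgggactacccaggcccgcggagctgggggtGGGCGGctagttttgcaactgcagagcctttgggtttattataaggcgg
Sdc4: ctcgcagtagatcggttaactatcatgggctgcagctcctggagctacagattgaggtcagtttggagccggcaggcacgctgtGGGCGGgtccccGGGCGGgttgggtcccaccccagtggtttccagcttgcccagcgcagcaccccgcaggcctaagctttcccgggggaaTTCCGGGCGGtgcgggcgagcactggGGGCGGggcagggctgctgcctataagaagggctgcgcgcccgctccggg
Gpc2: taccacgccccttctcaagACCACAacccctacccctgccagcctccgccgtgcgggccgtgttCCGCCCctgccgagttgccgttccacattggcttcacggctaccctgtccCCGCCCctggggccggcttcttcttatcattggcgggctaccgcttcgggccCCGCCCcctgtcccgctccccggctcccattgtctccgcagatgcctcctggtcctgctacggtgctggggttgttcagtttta
Gpc4: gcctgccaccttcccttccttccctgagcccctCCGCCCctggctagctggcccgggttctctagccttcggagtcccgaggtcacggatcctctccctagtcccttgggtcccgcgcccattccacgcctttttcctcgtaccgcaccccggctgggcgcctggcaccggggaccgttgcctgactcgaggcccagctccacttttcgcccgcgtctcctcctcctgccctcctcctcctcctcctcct

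The GC box occurred 3 times before Sdc1, 4 times before Sdc4, 3 times before Gpc2 and once before Gpc4, and 32.7% of all 32851 promoter windows of this length hold it. All 6 windows were rich in G and C, from 66.0% to 76.4%, against a median of 52.4% over all windows. The window of Sdc4 also holds 1 ETS match, which overlaps a GC box by 2 bases (12.0% of all windows hold one), and that of Gpc2 holds 1 RUNX match (14.0%). The exact letters TATAAA and AGATAA, held by 12.4% and 9.99% of all windows, had no match in the 6 windows. Near variants of these letters were not searched, so this does not show that such sites are absent. The GC box was also present 3 times in the windows of both Sdc3 and Gpc3, genes without a called difference.

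The genes were also placed among their neighbours, from the order of protein-coding genes in the RefSeq table of GRCm38.p6. Each syndecan gene has a matrilin gene close by, with 1 other listed gene between for Sdc1 and Matn3, Sdc3 and Matn1, and Sdc4 and Matn4, and 5 between for Sdc2 and Matn2. Matrilins are matrix proteins of cartilage. None of the 4 matrilin genes passed the threshold, and their mean log2 intensities lay between 2.42 and 3.51 in both populations. Gpc4 lies next to Gpc3 and Gpc6 next to Gpc5. Of the 18 neighbouring places, 15 were filled by a measured gene, and the 1 gene past the threshold among them was Gpc4 itself, as the neighbour of Gpc3. The direct neighbours of Sdc4, Rbpjl and Sys1, had log2 differences of 0.38 and -0.07, and those of Sdc1, Pum2 and Laptm4a, of 0.33 and 0.25 (adjusted p from 0.127 to 0.923).

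Likeness of pattern was measured as the root mean square difference over the 6 arrays between log2 profiles, each centred on its own mean, and is a description. Among the 9 genes the closest pair with a called difference was Sdc1 and Sdc4, at 0.35. Over all genes the closest to Sdc1 were Tshz3 (0.19), a zinc finger homeobox gene, Nfatc2 (0.27), a calcium-regulated transcription factor gene, and Hlf (0.31), a transcription factor gene of stem cells. Closest to Gpc2 were P2ry10 (0.10), Serpinf1 (0.13) and Atp10a (0.14). With 6 arrays in 2 populations, such profiles are set mainly by the difference between the populations.

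The genes that build, cut and read heparan sulfate were described through 11 lists, of which 143 genes were measured besides the 9. Of these, 12 passed the threshold, 8 higher and 4 lower in LSK, which is 8.39% against the 6.73% of all genes. Their median log2 difference was -0.01. With the replicate number as a block 27 passed, 15 higher and 12 lower, in a fit that called 14.4% of all genes. The count was 2 without LSK replicate 1 or without LK replicate 3, where Fyn and Sulf2 were kept, and 8 without LSK replicate 2. Over all genes the count fell as well, from 1225 to 322, 306 and 679 in these fits.

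Of 10 measured genes for the linker that joins the chain to its core protein and for sulfate supply, 0 passed. The lowest p belonged to Papss2, a synthase of the sulfate donor, at 3.64 ± 0.19 in LSK and 5.06 ± 0.80 in LK (SD, n = 3, limma adjusted p = 0.0791, 0.0214 with the block). Of 5 chain polymerase genes 0 passed, with the lowest p for Extl2 (8.71 ± 0.19 and 8.11 ± 0.04, SD, n = 3, adjusted p = 0.0582, 0.0509 with the block). Extl3, which starts the chain on the linker, had a larger log2 difference of 1.31 and was called only in the blocked fit (7.58 ± 0.57 and 6.27 ± 0.74, adjusted p = 0.131, 0.0177 with the block). Among 15 genes that modify the chain, 1 was higher and 0 lower. This was Sulf2, an extracellular sulfatase that removes 6-O-sulfates from finished chains. Its log2 intensity was 9.49, 9.56 and 9.43 in LSK and 8.22, 8.12 and 8.26 in LK, with a narrow spread in each population and no overlap. The log2 difference was 1.30 (SE 0.12), 2.45-fold, with a limma adjusted p of 0.00392. Averaged over its probe sets it was 0.52 (adjusted p = 0.0421).

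Of 9 genes for breakdown of the chain, 1 was higher and 1 lower in LSK. Ids, a lysosomal sulfatase, was 1.88-fold higher (adjusted p = 0.0142) and Gusb, the lysosomal beta-glucuronidase, 2.05-fold lower (adjusted p = 0.0432), and the list's median log2 difference was -0.40. Gusb was lost in all 6 fits that left out 1 array (adjusted p up to 0.147). Averaging the probe sets of each gene ended both calls, with a log2 difference of 0.11 for Ids (adjusted p = 0.594) and -0.68 for Gusb (adjusted p = 0.147). In the competing branch that makes chondroitin sulfate, 1 of 14 genes was higher and 1 lower. They were the paralogs Csgalnact1 and Csgalnact2, enzymes that add the first sugar of that chain. Csgalnact1 read 8.05, 7.59 and 7.57 in LSK and 5.55, 3.97 and 4.10 in LK (9.20-fold higher in LSK, adjusted p = 0.0106). Csgalnact2 read 8.13, 8.25 and 8.72 in LSK and 9.51, 9.79 and 9.92 in LK (2.59-fold lower, adjusted p = 0.014). For neither gene did the populations overlap. With the block 2 genes of this list were lower, the second being the chondroitin sulfotransferase gene Chst13 (3.81 ± 0.89 in LSK and 5.99 ± 0.86 in LK, SD, n = 3, adjusted p = 0.0708, 0.00183 with the block). Dropping either LSK replicate 1 or LK replicate 3 ended the calls of Ids, Csgalnact1 and Csgalnact2 (adjusted p up to 0.0692).

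Of 8 other genes for heparan sulfate proteoglycans, 1 was higher in LSK, the hyaluronan receptor gene Cd44 (1.70-fold, adjusted p = 0.0353), which can carry the chain in some splice forms. It was kept only without LSK replicate 3 among the fits that left out 1 array (adjusted p up to 0.121). Sheddases and lipases release these proteins from the cell. Of 15 genes on a list of them that also holds sheddase inhibitors, 0 passed. Mmp9 had the lowest p (4.57 ± 0.76 in LSK and 3.47 ± 0.18 in LK, SD, n = 3, limma adjusted p = 0.138, 0.0396 with the block). Among 19 genes for partners of the syndecan tail, 2 were higher and 1 lower. Fyn, a Src-family kinase, was 3.69-fold higher in LSK (8.27 ± 0.09 and 6.38 ± 0.33, SD, n = 3, adjusted p = 0.00483). Prkca, the kinase that syndecan-4 binds, was 1.79-fold higher at low levels (4.41 ± 0.26 and 3.57 ± 0.08, adjusted p = 0.0339). Tiam1, an activator of Rac that binds syndecan tails, was 2.18-fold lower (adjusted p = 0.0453). Prkca was kept only without LSK replicate 3 (adjusted p up to 0.125) and Tiam1 only without LK replicate 1 (up to 0.154). Averaging the probe sets of each gene ended the calls of Cd44 (log2 difference 0.36, adjusted p = 0.124), Prkca (0.50, adjusted p = 0.1) and Tiam1 (-0.39, adjusted p = 0.128), and gave 1.13 for Fyn (adjusted p = 0.0254). With the block, Nrp1 of the other proteoglycans was also lower, and Cask and Actn4 of the tail partners were lower. Mmp9 and the inhibitor gene Timp2, both of the sheddase list, were higher with the block.

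Among 23 genes listed as ligands 1 was higher and 0 lower, Angpt1, the ligand of Tek (5.04-fold, adjusted p = 0.0123). Whether Angpt1 or other listed ligands bind heparan sulfate was not tested. Among 21 receptor genes 1 was higher and 1 lower, the BMP receptor gene Bmpr2 (2.47-fold higher, adjusted p = 0.0162) and Met, the receptor of hepatocyte growth factor (3.93-fold lower in LSK, adjusted p = 0.0479). With the block 2 ligand genes were higher (Angpt1 and Ptn) and 2 lower (Pf4 and Vegfa), and 4 receptor genes were higher and 2 lower. The calls of Angpt1 and Bmpr2 ended when LSK replicate 1, or LK replicate 3, was dropped (adjusted p up to 0.0708), and Met was kept only without LSK replicate 3 (up to 0.151). Averaging the probe sets of each gene ended the calls of Bmpr2 (log2 difference 0.58, adjusted p = 0.061) and Met (-1.01, adjusted p = 0.0625).

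**Figure D3:**
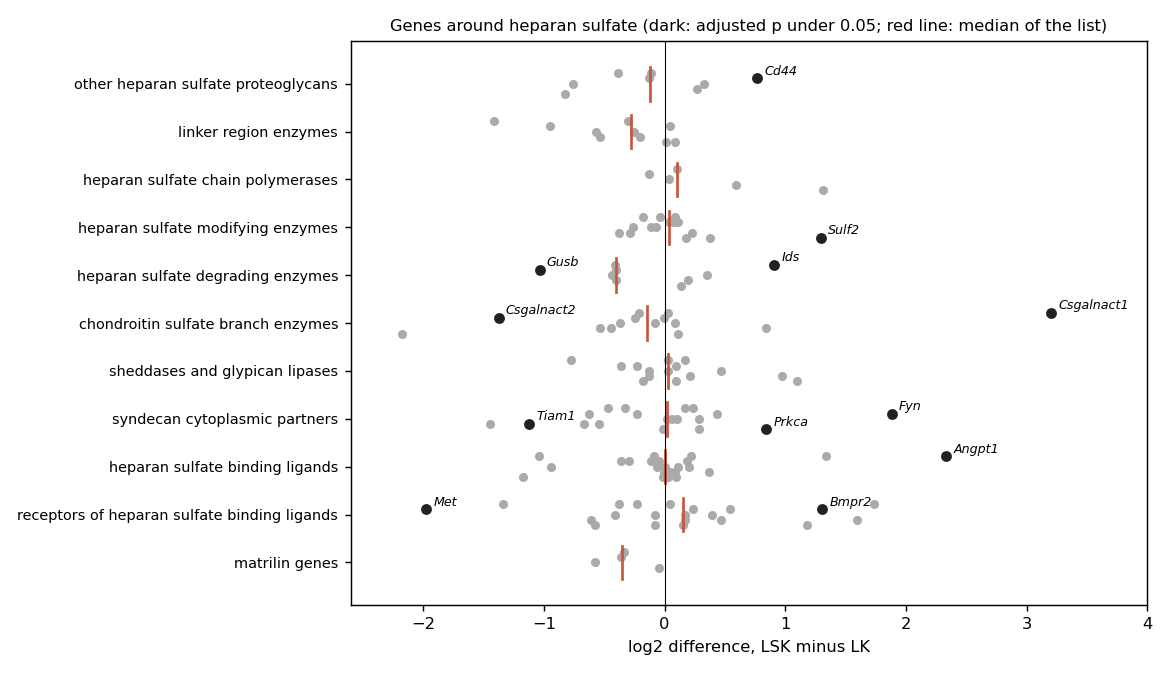
Log2 difference, LSK minus LK (x axis), of 143 genes in 11 lists (y axis). Dark points passed the threshold and are named, and red lines mark list medians, which lie between -0.40 and 0.15. Csgalnact1 and Angpt1 lie farthest toward LSK and Met farthest toward LK among the 12 named genes.

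Markers of other cells were set beside these values, since Sdc1 is a plasma cell marker and several members are known from stroma and endothelium. Of 8 plasma cell markers 0 passed the threshold (Xbp1 was lower in LSK with the block, adjusted p = 0.00712), and 5 averaged less than 4 on the log2 scale in LSK and in LK (Mzb1, Prdm1, Irf4, Tnfrsf17 and Derl3). Their summed linear intensity ran from 209 to 734 in LSK and from 240 to 408 in LK. Jchain, the joining chain of secreted antibodies, read 5.35, 2.58 and 8.94 in LSK and 2.96 to 3.16 in LK. The part of plasma cells in the Sdc1 difference was not tested. Of 10 stromal markers, 9 lay under 4 in both populations (sums of 95.5 to 108 in LSK and 84.8 to 101 in LK, 0 past the threshold), as did 6 of 8 endothelial markers (86.2 to 126 and 63.8 to 91.7, with Emcn higher in LSK).

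The sums of the B cell list were 70.7 to 110 in LSK and 62.5 to 91.8 in LK, with 0 of 7 genes past the threshold, and those of the T and NK cell list 631 to 1030 and 974 to 2542, with 0 of 6. The macrophage list summed to 193 to 807 and 998 to 1767, with 1 of 8 higher (and 2 lower with the block), the mature neutrophil list to 13088 to 20195 and 9950 to 19058, with 0 of 7 past the threshold and 4 of 7 higher in LSK with the block, and the platelet and megakaryocyte list to 181 to 221 and 218 to 482, with 0 of 8 (1 higher and 1 lower with the block). The erythroblast list summed to 46.3 to 50.2 in LSK and 701 to 1706 in LK, with 2 of 6 lower in LSK. Genes averaging less than 4 in both populations numbered 4 of 7 in the B cell list, 5 of 6 in the T and NK cell list and 6 of 8 in the macrophage list. They numbered 1 of 7 in the neutrophil list, 3 of 8 in the platelet list and 4 of 6 in the erythroblast list. Some of these sums thus come mainly from few genes. Gpc4 and Gpc1 had their highest LK values on different arrays. LK replicate 1, the highest for Gpc4, also had the highest LK values of the 4 erythroid genes among the committed progenitor markers, Klf1, Gata1, Car1 and Epor. LK replicate 3, the highest for Gpc1, had the highest LK values of 3 of the 4 granulocyte progenitor genes among them, Elane, Ctsg and Ms4a3, while Mpo was highest on LK replicate 2 (12.51, 12.97 and 12.89 on LK arrays 1 to 3). This split of the markers was made after their values were seen. Among the LSK arrays, replicate 3 was the lowest for the representing probe sets of Sdc1, Sdc4 and Gpc2. It had the lowest sum of the stem and multipotent progenitor list (3846, highest 4793). It had the highest LSK sum of the committed progenitor list (8621, lowest 4128). In LK these lists summed to 292 to 449 and 17908 to 26450. LSK replicate 3 also had the highest LSK sums of the plasma cell, macrophage, mature neutrophil, platelet and erythroblast lists. For the B cell, T and NK cell, stromal and endothelial lists another LSK array was the highest. The part of the makeup of the LSK or LK cells in these differences was not tested.

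The 3' to 5' difference was 2.32, 2.32 and 3.30 on the LSK arrays and 3.26, 3.94 and 3.40 on the LK arrays. Its mean was lower in LSK, but the populations overlapped, with LSK replicate 3 above LK replicate 1. With it as a covariate, none of the 9 genes passed in limma (25 of all genes did). The log2 difference was then 3.50 for Sdc1 (adjusted p = 0.0587), 3.08 for Sdc4 (0.0754), 0.94 for Gpc2 (0.454), -1.22 for Gpc1 (0.465) and -2.23 for Gpc4 (0.37), each in the same direction as before. The part of RNA quality in these differences was not tested.

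**Figure D4:**
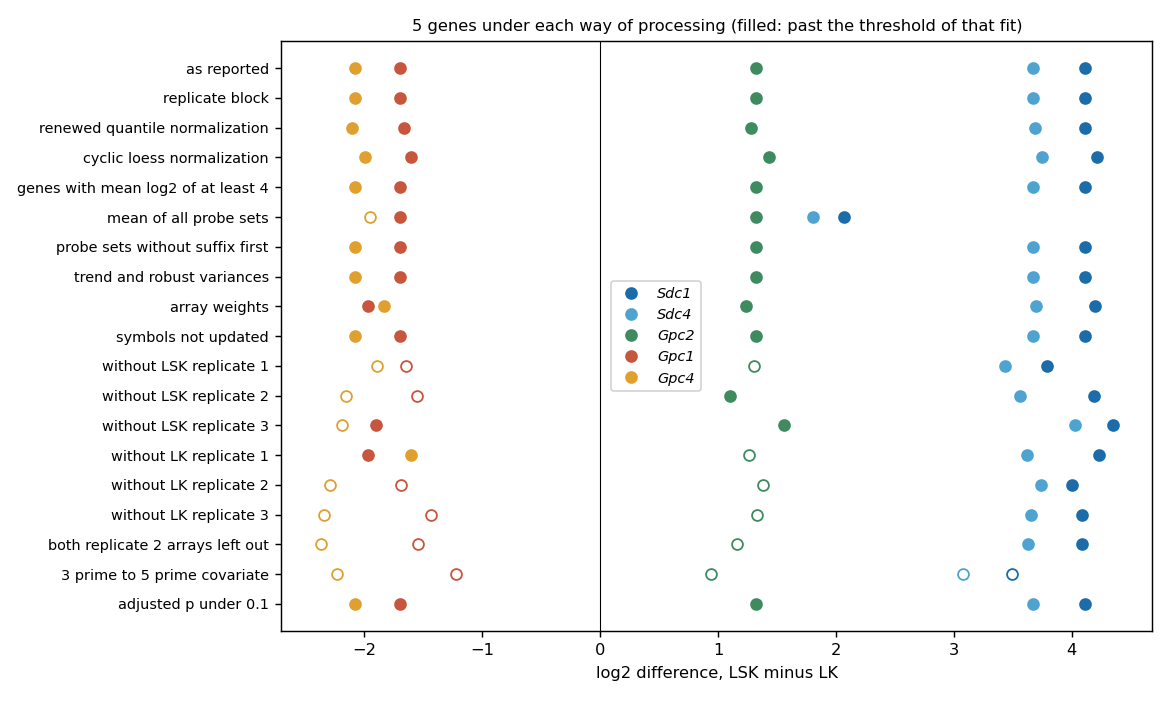
Log2 difference, LSK minus LK (x axis), of the 5 genes past the threshold under the reported fit and 18 alternatives (y axis). Filled points passed the threshold of that fit. Sdc1 and Sdc4 are filled in every fit except that with the 3' to 5' covariate, and Gpc1, Gpc2 and Gpc4 are open in several fits with fewer arrays.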

How the data were processed

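The authors deposited linear intensities for each probe set. The submitters' processing notes name RMA, affy and R 2.11.0. RMA corrects background, normalises arrays by quantiles and summarises probes. Detection calls and scan files were not used here, and the build is not given in the sources used here. The intensities were turned into log2 values. Of 45037 probe sets besides 64 controls, 34945 carried 1 gene symbol, updated through a RefSeq table (GRCm38.p6) for 34741. The probe set with the highest mean log2 stood for each of 18193 genes.

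The populations were compared in limma 3.58.1 under R 4.3.3 (lmFit and eBayes, two-sided, all 6 arrays, no covariate). P-values were adjusted by Benjamini-Hochberg over the full set of genes or probe sets, with a threshold of 0.05. The SD, SE and intervals are on the log2 scale, and the number of arrays limits their precision. The fit was tested on simulated data. Samples with the same number deviated together (correlations across genes of 0.42, 0.43 and 0.27). On the basis of the data, the replicate number was therefore used as a block in an alternative fit. The reported fit does not use this pairing, which the labels do not state. No 2 arrays were identical (0 of 15 pairs). The members and lists were chosen with earlier results of these data known. The text names all members, from each list the 2 genes past the threshold with the largest log2 difference and the largest opposite one, or the lowest p where none passed, all matrilins, and the 3 genes closest in pattern to 1 syndecan and 1 glypican. Alternatives covered the block, normalisation, a dim filter, probe set choice, variances, array weights, symbols, a covariate, a laxer threshold and left-out arrays. A few markers, neighbours and genes called only with the block were named after their values were seen.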

Additional observations from a re-analysis of the deposited data

How the results depend on the processing

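All p-values are from limma. With the replicate number as a block, 5 of the 9 genes passed as before, while the count over all genes rose from 1225 to 2617 and that of heparan sulfate pathway genes from 12 to 27. Leaving out 1 array gave 2 to 4 of the 9 genes, 2 to 6 of their 23 probe sets, 306 to 1269 of all genes and 2 to 13 pathway genes. Leaving out both arrays numbered 2 gave 2, 3, 537 and 6. The 3' to 5' covariate gave 0 of the 9 genes, 0 of their probe sets, 25 of all genes and 0 pathway genes. Array weights called 2606 of all genes and 25 pathway genes, a threshold of 0.1 called 2279 and 21, and averaging probe sets called 6 pathway genes. Fewer arrays or added terms leave fewer degrees of freedom, and otherwise the cause was not tested.

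Values near 0 changed sign. The log2 difference of Sdc3 was -0.037 with renewed quantile normalisation, -0.032 with loess, -0.044 with array weights, -0.072 without both arrays numbered 2, -0.30 with the covariate, and -0.090 to 0.144 with 1 array left out. With 1 array left out, Sdc2 ran from -0.40 to 0.14, Gpc3 from -0.071 to 0.049 and Matn4 from -0.099 to 0.0034. The covariate gave 0.0011 for Sdc2 and 0.045 for Gpc3, and Gpc6 was 0.059 when probe sets without a suffix were preferred. Over the 9 genes and all alternatives, 123 of 159 values kept their direction and side of the threshold, 22 lost the threshold and 14 changed sign. Only genes past the threshold in the reported fit could lose it. Of 18 alternatives, Sdc1 and Sdc4 passed in 17 each, Gpc1 and Gpc2 in 12 each and Gpc4 in 10. Some of these passes could not fail: a gene called at 0.05 also passes at 0.1. Gpc1 and Gpc2 have 1 probe set each, so the choice or averaging of probe sets could not change their log2 differences. For the 9 genes, symbols not updated and the laxer threshold gave the same log2 differences and p-values as the reported fit. Requiring a mean log2 of at least 4 left 6 of the 9 genes tested. Dim probe sets, 13 of the 23, limit what the arrays can show for Sdc3, Gpc3 and Gpc6.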
